A study of Rattus norvegicus and Sus scrofa and Bos taurus with 188 samples.

Results

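Transporters of glucose, monocarboxylates and amino acids were examined in pig morulae, the stage at which the cells of the cleaving embryo compact. The genes were chosen by name: every gene of the deposited RNA table whose symbol belongs to the solute carrier families SLC1, SLC2, SLC3, SLC5, SLC6, SLC7, SLC16, SLC36, SLC38 or SLC43. This gave 92 genes of 15877 named genes, with 228 of the 37571 transcript rows. Of the 99 transporters listed by hand for these families, 7 were not analysed here, namely SLC2A1, SLC2A3, SLC2A11, SLC2A14, SLC16A10, SLC6A16 and SLC38A6. The glucose transporters SLC2A1 and SLC2A3 are thus outside every count below.

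The series holds 188 samples of gametes and early embryos of several mammals, and the values belong to 1 group of 4 Smart-seq2 RNA libraries (full-length cDNA from very small inputs). These libraries are titled as pig PG morulae, and stage labels of sister PG samples describe parthenogenetic activation, in which an egg develops without sperm and with a maternal genome alone. The number of embryos behind each library, their age in days and their strain are not given in the sources used here. All 4 libraries were combined by the authors, as reads or as values, in 1 column of FPKM (fragments scaled to transcript length and library total), so no spread between libraries, SD or test can be given. Their depth is unknown. A gene's level is its highest transcript row, and 1 FPKM or more is called expressed. In RNA of whole embryos, a lower level in every cell and a smaller number of expressing cells cannot be told apart.

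The solute carriers of these families move small nutrients across cell membranes. SLC2 proteins let hexoses pass down their gradient, SLC5 proteins couple uptake to sodium, and SLC16 proteins carry lactate, pyruvate and related acids, the best known of them together with protons. Amino acids enter through sodium-coupled carriers (SLC1, SLC6 and part of SLC38), through carriers of cationic amino acids, through proton-coupled carriers (SLC36) and through exchangers built from an SLC7 light chain bound to an SLC3 heavy chain. Early mouse embryos are known to rely on pyruvate and lactate before compaction and to take up more glucose from the morula stage on.

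The libraries carried RNA typical of oocytes and early embryos, and the marker list joins both. Its oocyte genes H1FOO, BMP15, GDF9 and ZP2 stood at 90.3, 48.1, 10.2 and 5.00 FPKM. All 10 measured markers of oocyte and early embryo were at 1 FPKM or more, from ZP3 at 1.44 FPKM to TFAP2C at 194 FPKM. Of 11 measured markers of the cumulus and granulosa cells that surround the egg, 1 was, the matrix gene VCAN at 10.2 FPKM. VCAN came to 19.1 FPKM with its rows summed. The steroid enzyme gene CYP19A1 was at 0.835 FPKM (1.06 FPKM summed), STAR at 0.300 FPKM and AMHR2 at 0.205 FPKM. FOXL2, FSHR, INHA and TNFAIP6 were listed at 0, CYP11A1, PTX3 and AMH were under 0.1 FPKM, and the highest rows of the whole list summed to 11.5 FPKM. Of 4 blood cell markers the macrophage gene CD68 reached 1.32 FPKM, and the list summed to 1.91 FPKM. The part of such cells in the levels below was not tested, nor was the part of RNA kept from the egg.

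Most of the transporter genes were low, and a few were high. A level of 1 FPKM or more was found for 32 of the 92 transporters (34.8%), against 48.8% of all named genes and 40.4% of the 213 other genes named as solute carriers. A further 44 had values between 0 and 1 FPKM, and 16 (17.4%) were listed at 0, beside 17.3% of all genes. The median was 0.367 FPKM over the 92 genes, 0.609 FPKM over the other solute carriers and 0.916 FPKM over all genes. The 32 expressed transporters had a median of 4.40 FPKM, beside 6.89 FPKM over all expressed genes. The transporters' share was below that of all genes under each other setting tried: 47.8% against 56.5% at 0.5 FPKM, 39.1% against 50.6% with the rows of a gene summed, and 35.2% against 49.5% without the closing rows of the table, which are all at 0. It was 53.3% against 68.1% once genes under 0.1 FPKM were left out, and 52.2% against 61.3% at 1 TPM, with all rows scaled to the same total. These gaps have no replicate check.

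The 4 highest genes belonged to 4 different families. SLC16A1 alone took 33.2% of the summed level of the 92 genes, and the 4 highest genes, with SLC6A8, SLC43A3 and SLC2A9, took 68.2%. At 10 FPKM or more stood 9 of the 92 genes (9.78%), against 20.2% of all genes. At 100 FPKM or more stood 1 (1.09%), against 3.14% of all genes. The 4 highest carry different substrates, namely lactate and pyruvate, creatine, purine bases, and urate with hexoses.

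**Figure D1:**
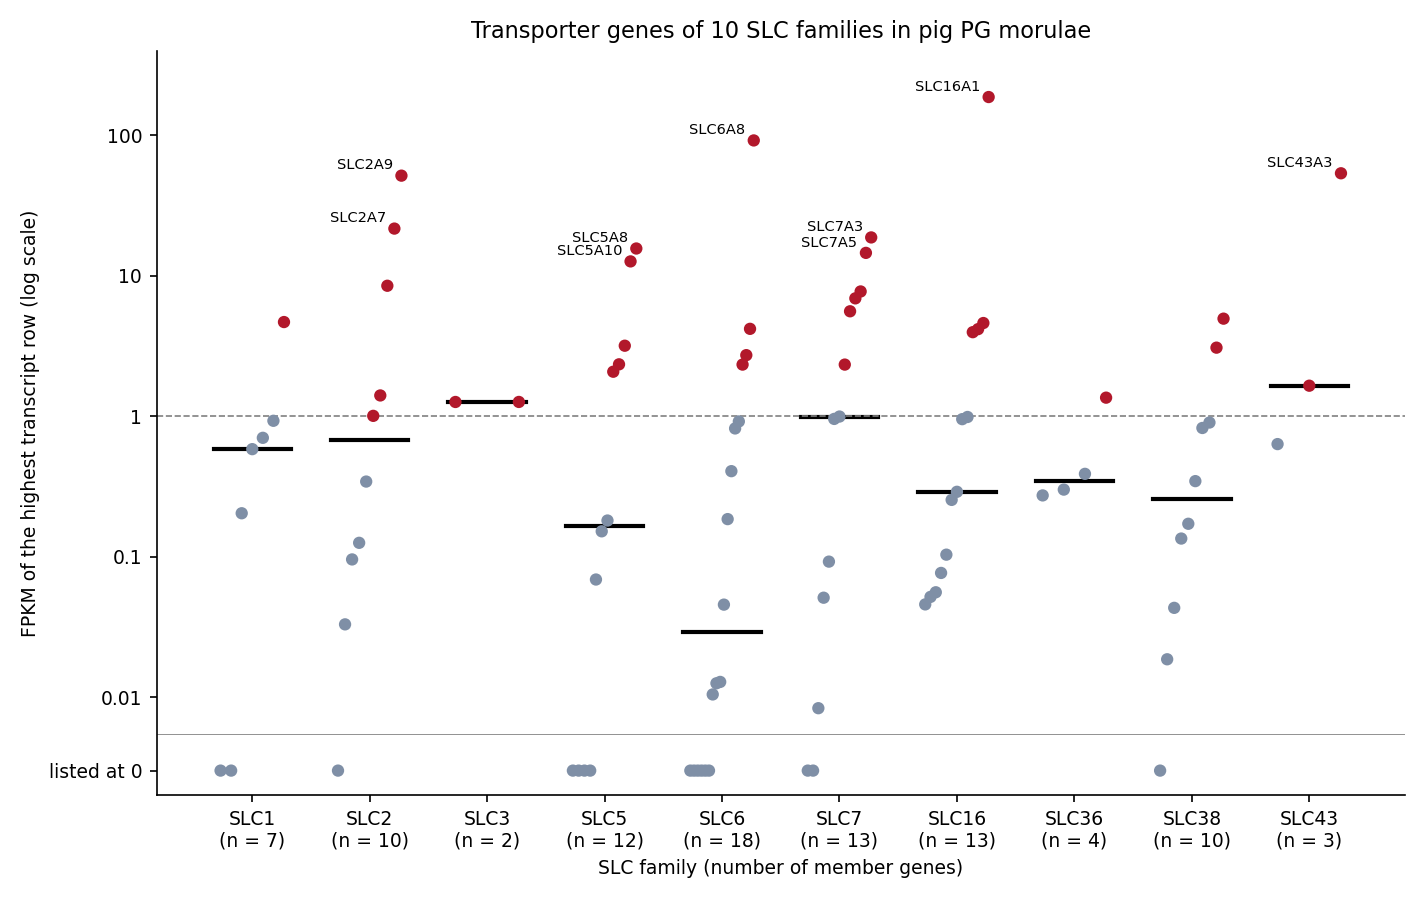
FPKM of the highest transcript row (log scale, with genes listed at 0 in a band of their own) of each of the 92 transporter genes, by SLC family. Each point is 1 gene, red at 1 FPKM or more, the black bar is the family's median and the dashed line marks 1 FPKM. In SLC2, SLC6, SLC16 and SLC43 1 gene stood above 50 FPKM, while the medians of all 10 families were below 2 FPKM.

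**Figure D2:**
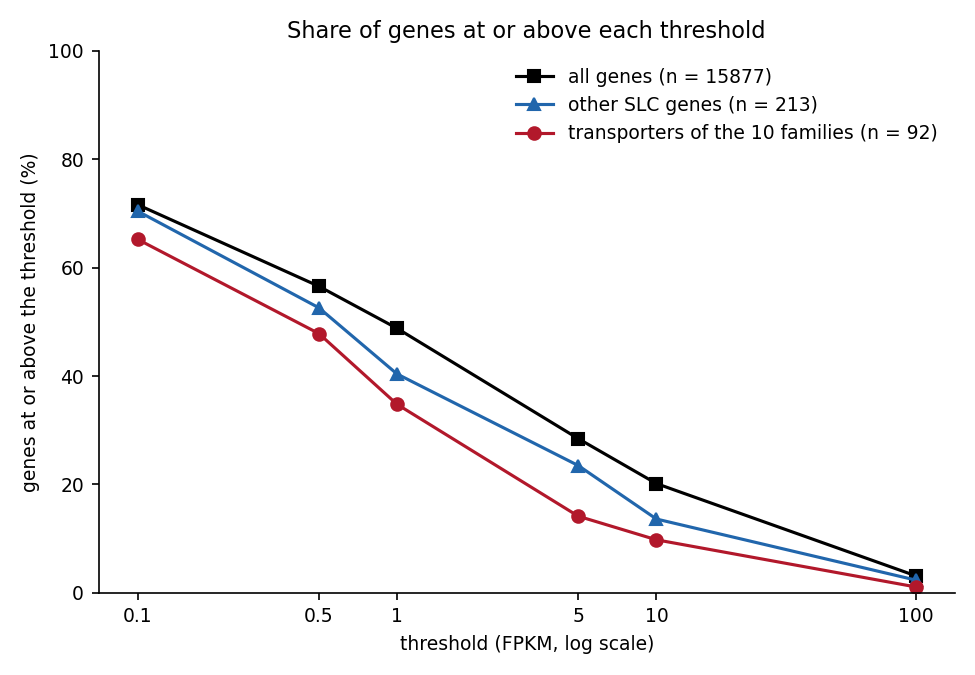
Percent of genes at or above each FPKM threshold (log scale) for the 92 transporters, the 213 other solute carrier genes and all 15877 named genes. The transporters lay below both other sets at all 6 thresholds, for example 65.2% against 70.4% and 71.6% at 0.1 FPKM and 14.1% against 23.5% and 28.4% at 5 FPKM.

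Among carriers of lactate and pyruvate, 1 gene dominated. SLC16A1, which encodes the monocarboxylate transporter MCT1, stood at 187 FPKM, the 220th highest gene of the table and 40.6 times the next member of its family. The other proton-coupled lactate carriers were all below 1 FPKM. SLC16A7, which encodes MCT2, was at 0.254 FPKM, so that SLC16A1 exceeded it 738-fold. SLC16A8 (MCT3) was at 0.0558 FPKM and SLC16A3, the lactate exporter MCT4 of glycolytic cells, at 0.0457 FPKM. SLC5A8, a sodium-coupled carrier of monocarboxylates, stood at 15.6 FPKM, so that SLC16A1 was 12.0 times as high. The other sodium-coupled monocarboxylate carrier, SLC5A12, was listed at 0.

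The remaining SLC16 genes carry other solutes or are little studied, and 3 of these 9 were expressed. SLC16A14 stood at 4.61 FPKM, the creatine carrier SLC16A12 at 4.17 FPKM and the carnitine carrier SLC16A9 at 3.97 FPKM. These 3 lay close together. Just below 1 FPKM were SLC16A11 at 0.988 FPKM and SLC16A6 at 0.953 FPKM, and SLC16A4 was at 0.290 FPKM. SLC16A5 was at 0.103 FPKM and SLC16A13 at 0.0766 FPKM. Of the SLC16 family, 4 of 13 genes (30.8%) were expressed, against 48.8% of all genes, and none was listed at 0.

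Hexose carriers of the SLC2 family were expressed in 5 of 10 cases (50%), a share close to that of all genes (48.8%). The highest was SLC2A9, which encodes GLUT9, a carrier of urate and hexoses, at 51.6 FPKM. SLC2A7, which encodes GLUT7, followed at 21.7 FPKM, and SLC2A12 (GLUT12) at 8.49 FPKM. The liver and islet type glucose carrier SLC2A2 was at 1.41 FPKM, lower than SLC2A9 by a factor of 36.7, and SLC2A8, whose product sits on internal membranes, was at 1.01 FPKM. Among the measured SLC2 genes the lead thus lay with members other than SLC2A2. The classical glucose carriers SLC2A1 and SLC2A3 were not analysed here, so whether the lead extends to them is not known.

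Among the SLC2 genes below 1 FPKM were the inositol carrier SLC2A13 at 0.343 FPKM, SLC2A6 at 0.126 FPKM and the insulin-responsive carrier SLC2A4 (GLUT4) at 0.0956 FPKM. The fructose carrier SLC2A5 was at 0.0330 FPKM. SLC2A10 was listed at 0 in all its 7 transcript rows.

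Sodium-coupled carriers of sugars and inositol were expressed in 3 of 7 cases (42.9%), beside 48.8% of all genes. SLC5A10, which encodes a carrier of mannose and fructose, stood at 12.7 FPKM in its highest row, 6.10 times SLC5A1, which encodes the intestinal glucose carrier SGLT1 and stood at 2.07 FPKM. The myo-inositol carrier SLC5A3 was at 3.18 FPKM. The renal glucose carrier SLC5A2 (SGLT2) was at 0.181 FPKM and SLC5A4 at 0.152 FPKM, while SLC5A9 and SLC5A11 were listed at 0. SLC5A11 lies in the closing 474 rows of the table, which are all at 0 and also hold the mitochondrially encoded genes, so its level is not known. Among the other SLC5 genes the vitamin carrier SLC5A6, which takes up biotin and pantothenate, was at 2.34 FPKM, the iodide carrier SLC5A5 at 0.0688 FPKM and the choline carrier SLC5A7 at 0. The SLC5 family as a whole had 5 of 12 genes (41.7%) expressed, beside 48.8% of all genes.

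Of the SLC1 family, which carries glutamate and small neutral amino acids, 14.3% of the genes reached 1 FPKM, against 48.8% of all genes. This count depended on the setting. At 0.5 FPKM it was 4 of 7, against 56.5% of all genes, and at 1 TPM it was 4, against 61.3%. SLC1A5, which encodes the glutamine carrier ASCT2, was the 1 expressed gene of 7 (14.3%), at 4.68 FPKM, 8.03 times its close relative SLC1A4 at 0.583 FPKM. None of the 5 high-affinity glutamate carriers reached 1 FPKM in its highest row. SLC1A1, which encodes EAAC1, was nearest at 0.928 FPKM, followed by SLC1A3 at 0.702 FPKM and SLC1A2 at 0.204 FPKM. SLC1A6 and SLC1A7 were listed at 0. SLC1A3 crossed the threshold with its 5 rows summed, at 1.54 FPKM.

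The heteromeric exchangers showed unlike levels of their chains. The heavy chain SLC3A2 (4F2hc, CD98), which brings several light chains to the cell surface, stood at 1.26 FPKM in its 1 transcript row. The light chain SLC7A5, which encodes LAT1, the exchanger of large neutral amino acids, stood at 14.6 FPKM, 11.5 times the heavy chain. The exchangers of cationic for neutral amino acids SLC7A7 (y+LAT1) and SLC7A6 (y+LAT2) stood at 7.73 and 6.91 FPKM, 6.12 and 5.46 times the heavy chain. SLC7A8 (LAT2) stood at 5.59 FPKM, 4.42 times. Together these 4 light chains came to 34.8 FPKM, 27.5 times SLC3A2.

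The cystine and glutamate exchanger SLC7A11 (xCT), which feeds glutathione synthesis, lay just under the threshold at 0.995 FPKM, and SLC7A10 was at 0.00834 FPKM. The second pair of chains was even: the heavy chain SLC3A1 (rBAT) stood at 1.26 FPKM and its light chain SLC7A9 at 0.957 FPKM, 0.758 times as high, or 1.09 FPKM with its rows summed. Light chain SLC7A13 was listed at 0. Of the 8 light chains 4 (50%) were expressed, close to the 48.8% of all genes.

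Among the 5 genes of the cationic amino acid transporter group, SLC7A3, which encodes CAT3, was highest at 18.8 FPKM. SLC7A2 (CAT2) was at 2.33 FPKM, an 8.04-fold lower level, and SLC7A1, the widely expressed CAT1, at 0.0511 FPKM, 367-fold lower than SLC7A3. SLC7A4 was at 0.0922 FPKM and SLC7A14 was listed at 0. The SLC7 family had 6 of 13 genes (46.2%) expressed, close to the 48.8% of all genes. At 10 FPKM or more stood 2 of the 13, beside 20.2% of all genes.

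The SLC6 family held one of the highest and many of the lowest genes. The creatine carrier SLC6A8 stood at 92.0 FPKM, 21.9 times the next member. Of the family's 18 genes 4 (22.2%) were expressed, against 48.8% of all genes. The serotonin carrier SLC6A4 was at 4.19 FPKM, the proline carrier SLC6A20 at 2.72 FPKM and the glycine carrier SLC6A5 at 2.33 FPKM. Below 1 FPKM, the GABA carrier SLC6A11 was at 0.918 FPKM and the neutral amino acid carrier SLC6A15 at 0.819 FPKM. The taurine carrier SLC6A6, the glycine carrier SLC6A9, the betaine carrier SLC6A12, SLC6A14 and SLC6A17 lay between 0.0105 and 0.185 FPKM. SLC6A6 was the highest and SLC6A17 the lowest of these 5. The noradrenaline and dopamine carriers SLC6A2 and SLC6A3, the proline carrier SLC6A7, and SLC6A13, SLC6A18 and SLC6A19 were listed at 0.

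The SLC38 and SLC36 families had few genes at 1 FPKM or more. SLC38A9, whose product on the lysosome passes arginine status to mTORC1, stood at 4.95 FPKM. SLC38A2 (SNAT2), a system A carrier of small neutral amino acids, stood at 3.08 FPKM, 17.9 times SLC38A1 at 0.172 FPKM. The other system A gene, SLC38A4, was at 0.0186 FPKM, a 165-fold gap. SLC38A10 at 0.902 FPKM, SLC38A7 at 0.825 FPKM and SLC38A8 at 0.345 FPKM came next below the threshold. The system N glutamine carriers SLC38A3 and SLC38A5 were at 0.135 and 0.0432 FPKM, and SLC38A11 was listed at 0. The family thus had 2 of 10 genes (20%) expressed, against 48.8% of all genes. The SLC38 count was 4 at 0.5 FPKM and 5 at 1 TPM, against 56.5% and 61.3% of all genes.

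Of the proton-coupled amino acid carriers, SLC36A1, found on lysosomes, stood at 1.36 FPKM. SLC36A4, SLC36A3 and SLC36A2 lay below 1 FPKM at 0.389, 0.300 and 0.273 FPKM. Of the 4 SLC36 genes 1 (25%) was thus expressed, or 2 at 1 TPM. The SLC43 family had 2 of 3 genes expressed: SLC43A3, a carrier of purine bases, at 53.7 FPKM, and SLC43A1 (LAT3), a carrier of large neutral amino acids, at 1.65 FPKM, 32.5-fold lower. SLC43A2 (LAT4) was at 0.633 FPKM, so that 66.7% of the family's 3 genes were expressed, beside 48.8% of all genes. The highest gene of the family was thus the member known for purine bases rather than amino acids.

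Families were set side by side by the difference of their median log2(FPKM + 1). The median SLC2 gene exceeded the median SLC5 gene by 0.49, the median SLC16 gene differed from SLC2 by -0.35, SLC7 from SLC3 by -0.18, SLC38 from SLC36 by -0.10, and SLC1 from SLC6 by 0.62. Each of the 5 differences changed its sign under at least 1 alternative processing: SLC2 against SLC5 among genes at 0.1 FPKM or more alone (-0.47), and SLC16 against SLC2 with rows summed (0.029). With means in place of medians SLC7 exceeded SLC3 by 0.44 and SLC38 exceeded SLC36 by 0.12, while SLC1 lay below SLC6 (-0.11). No order of the families by their medians is therefore given. Their single highest genes ranged from 1.26 FPKM in SLC3 to 187 FPKM in SLC16. The families were of unequal size, from 2 genes (SLC3) to 18 (SLC6), and this was not adjusted for.

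The level of a gene depends on how reads were split over its transcript rows. Of the 92 genes 33 had 1 row and 59 had several, up to 8. Among the 22 expressed genes with several rows, the highest row held 95% or more of the gene's sum in 10 and under 75% in 6. The lowest share was that of SLC5A10, whose 8 rows summed to 26.3 FPKM, with 48.1% in the highest row and further rows at 8.85 and 3.71 FPKM. SLC5A6 followed with 51.0% (4.59 FPKM summed), SLC7A2 with 60.4% (3.86 FPKM), SLC36A1 with 62.2% (2.18 FPKM), SLC7A7 with 74.1% (10.4 FPKM) and SLC5A1 with 74.8% (2.77 FPKM). For SLC16A1 the highest row held 76.4% of 245 FPKM, with further rows at 38.8, 13.8 and 4.47 FPKM, and for SLC6A8 75.6% of 122 FPKM. SLC2A9 and SLC16A14 had all of their sum in 1 row. With rows summed SLC5A10 stood above SLC2A7, SLC7A3, SLC5A8 and SLC7A5, and 4 genes crossed 1 FPKM: SLC1A3, SLC6A11 (1.39 FPKM), SLC7A9 and SLC16A11 (1.06 FPKM).

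**Figure D3:**
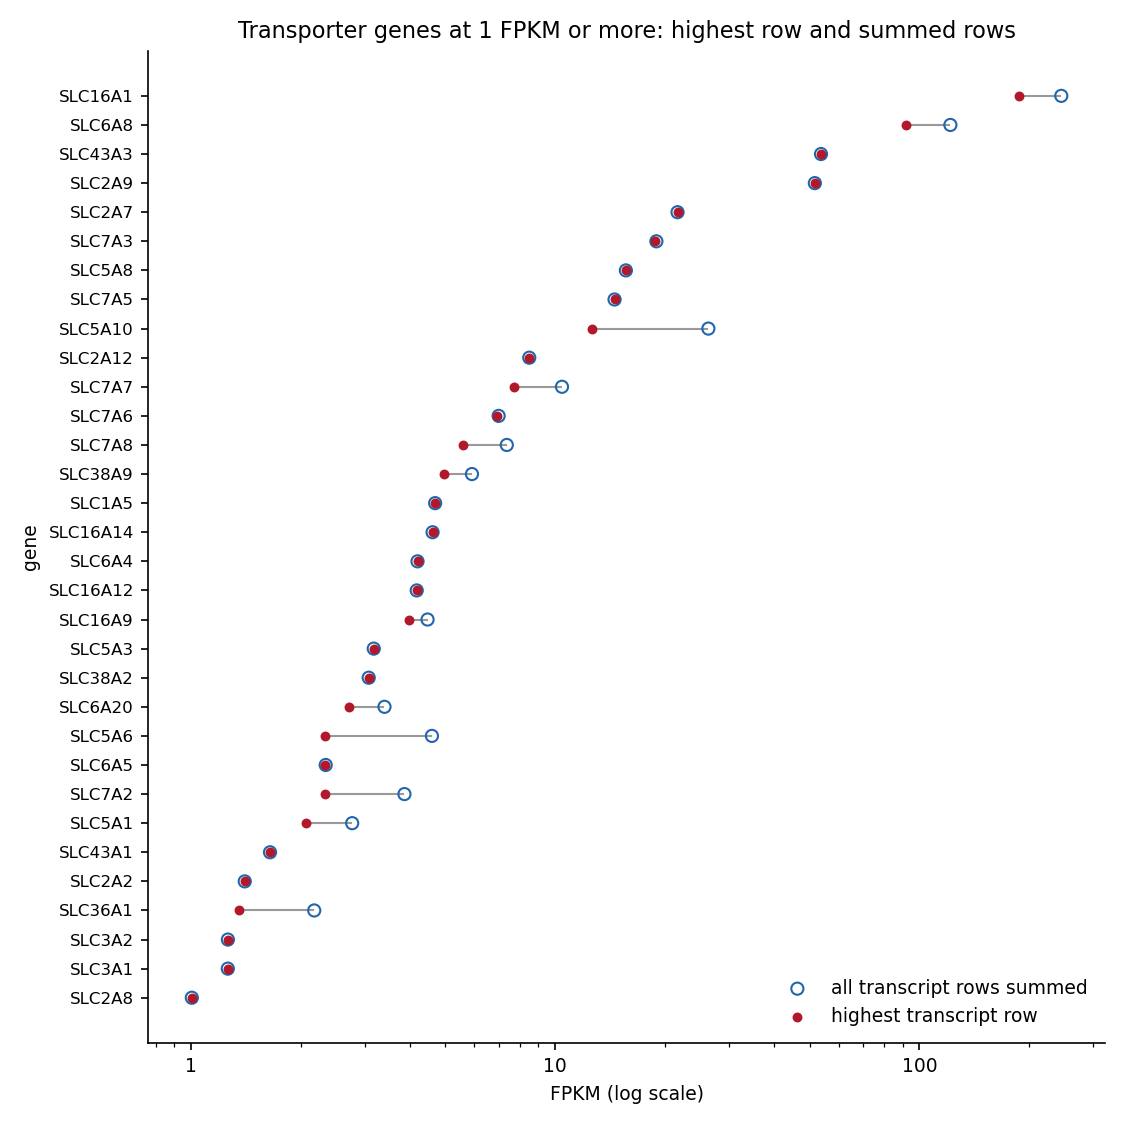
FPKM (log scale) of the 32 transporter genes at 1 FPKM or more, as the highest transcript row (red) and as the sum of all rows of the gene (open blue circles). Both values coincide for most genes, and they lie farthest apart for SLC5A10, at 12.7 and 26.3 FPKM.

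The threshold cut through a dense part of the range. In the span from 0.9 to under 1 FPKM lay 7 transporters, and from 1 to under 1.3 FPKM lay 3. Nearest above was SLC2A8 at 1.01 FPKM, and nearest below was SLC7A11 at 0.995 FPKM. Without replicates, the side of 1 FPKM on which these genes lie has no check.

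Some transporters of one family are listed next to each other in the table, with no gene of another name between them. There were 10 such pairs, each within 1 family, and in 5 of them 1 gene was expressed and the other was not. Of the transporters 34.8% were expressed, against 48.8% of all genes, and no share of unlike pairs among other genes was computed. SLC38A2 and SLC36A2 stand in more than 1 pair, so the pairs are not independent. The widest gap was 657-fold, between SLC2A7 at 21.7 FPKM and SLC2A5. SLC38A2 differed from both of its neighbours, SLC38A1 and SLC38A4. SLC5A1 exceeded SLC5A4 by a factor of 13.7, SLC16A11 exceeded SLC16A13 (0.0766 FPKM) by a factor of 12.9, and SLC36A1 exceeded SLC36A2 by a factor of 4.97. SLC36A2 and SLC36A3 lay within a factor of 1.10 of each other. How closely related genes share reads was not tested.

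**Figure D4:**
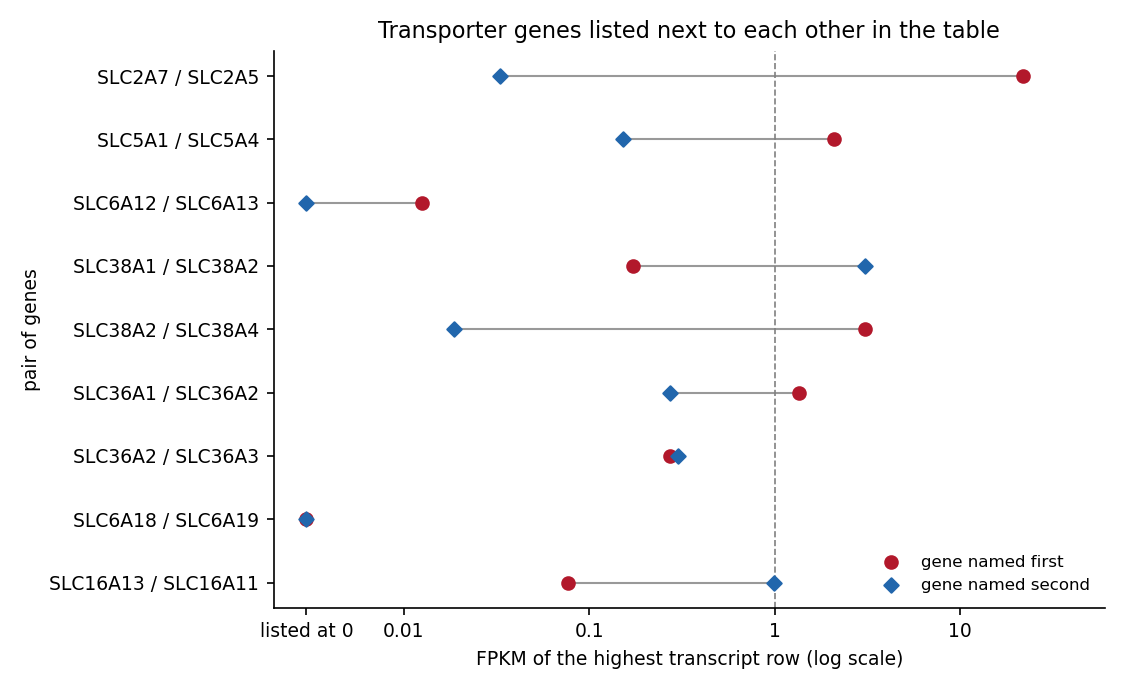
FPKM of the highest transcript row (log scale, zeros in a place of their own) of 9 of the 10 pairs of transporter genes listed next to each other in the table, with the first gene as a red circle and the second as a blue diamond. The dashed line marks 1 FPKM, and the longest bar joins SLC2A7 at 21.7 FPKM to SLC2A5 at 0.0330 FPKM.

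Genes that act with the transporters were described from 10 lists by function. Of their 89 measured genes 67 (75.3%) were at 1 FPKM or more, against 34.8% of the transporters and 48.8% of all genes. Their median was 5.49 FPKM. The lists hold many widely expressed enzymes, and they were written with earlier results of these data known.

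Glucose that enters a cell is trapped by hexokinases, a step that glucose-6-phosphatases reverse. Of 9 genes in the list of hexokinases and glucose-6-phosphatases, 2 were expressed, or 4 of 9 at a threshold of 0.5 FPKM. HK2, a hexokinase of growing and muscle cells, stood at 12.1 FPKM and ADPGK, which uses ADP, at 6.57 FPKM. The phosphatase gene G6PC3 and the hexokinase genes HK1 and HK3 were next below 1 FPKM at 0.839, 0.664 and 0.330 FPKM. Of 9 regulators of glucose carrier traffic 7 were expressed, led by the GTPase gene RAB10 at 59.7 FPKM, the kinase gene AKT2 at 3.77 FPKM, the vesicle fusion gene STX4 at 1.75 FPKM and the membrane scaffold gene STOM at 1.71 FPKM. TXNIP, whose product lowers glucose uptake, was at 0.863 FPKM and GIPC1 at 0.231 FPKM. Of the 9 regulators, RAB10 alone exceeded 5 FPKM.

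Beyond SLC16A1, pyruvate passes into mitochondria, and 10 of 12 genes of lactate and pyruvate metabolism were expressed. Both subunits of the mitochondrial pyruvate carrier were high, MPC1 at 88.3 FPKM and MPC2 at 50.2 FPKM. The pyruvate dehydrogenase subunit gene PDHB stood at 49.0 FPKM and the pyruvate kinase gene PKM at 40.2 FPKM. Of the lactate dehydrogenase genes, LDHB stood at 18.1 FPKM and LDHC at 2.93 FPKM, and LDHA was not analysed here. Of the pyruvate dehydrogenase kinase genes, PDK3 stood at 34.2 FPKM, PDK1 at 3.37 FPKM and PDK2 at 2.72 FPKM. PDK4 at 0.156 FPKM and LDHD at 0.0385 FPKM were not expressed. Of the accessory proteins that escort carriers to the membrane, NPTN was at 16.6 FPKM, while EMB, a partner of the monocarboxylate carriers, was at 0.238 FPKM. BSG, the usual partner of SLC16A1, was not analysed here.

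Genes that use or make amino acids were mostly expressed. All 7 genes of serine, glycine and asparagine synthesis were at 1 FPKM or more, 4 of them at 5 FPKM or more, with GLDC, of the glycine cleavage system, at 16.9 FPKM, SHMT2 at 9.22 FPKM, PSPH at 9.13 FPKM and the asparagine synthetase gene ASNS at 6.81 FPKM highest. Of 8 genes of glutamine and glutamate metabolism 7 were, led by the transaminase genes GPT2 (34.7 FPKM), GOT2 (32.7 FPKM) and GOT1 (28.8 FPKM) and by GLUD1 (18.2 FPKM), with PYCR1 at 0.589 FPKM below. The 4 named transaminase and dehydrogenase genes stood above the glutamine carrier SLC1A5, while PYCR1 and the glutaminase gene GLS2 (1.34 FPKM) stood below it. Of 5 genes of branched-chain amino acid breakdown 4 were expressed, with the inhibitory kinase gene BCKDK at 64.8 FPKM, BCAT1 at 17.3 FPKM, DBT at 9.64 FPKM and BCKDHB at 4.28 FPKM, and BCAT2 at 0.107 FPKM. Of 5 genes of glutathione synthesis 4 were, namely CTH, which makes cysteine inside the cell, at 35.4 FPKM, GSS at 12.8 FPKM, GCLM at 8.26 FPKM and GCLC at 5.49 FPKM, with CHAC2 at 0.344 FPKM. CTH thus stood above the cystine carrier SLC7A11.

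Amino acid supply is read by mTORC1 on the lysosome, and 17 of 23 genes of this list were expressed. LAMTOR3, of the complex that anchors mTORC1, stood at 283 FPKM, the activating GTPase gene RHEB at 275 FPKM, the mTORC1 subunit gene MLST8 at 227 FPKM and the GTPase gene RRAGA at 68.0 FPKM. CASTOR2 at 0.898 FPKM, the kinase gene MTOR at 0.793 FPKM and TSC2 at 0.508 FPKM were the highest below the threshold. The 5 anchor genes LAMTOR1 to LAMTOR5 ranged from 11.7 FPKM (LAMTOR4) to 283 FPKM, above the lysosomal carriers SLC38A9 and SLC36A1. All 10 genes of the response to amino acid deprivation were expressed, 6 of them at 5 FPKM or more, with the transcription factor gene ATF4 at 85.6 FPKM, DDIT3 at 14.2 FPKM, the sensor kinase gene EIF2AK4 at 13.8 FPKM and ATF5 at 10.1 FPKM highest. No other embryos were analysed, so these levels have no baseline.

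**Figure D5:**
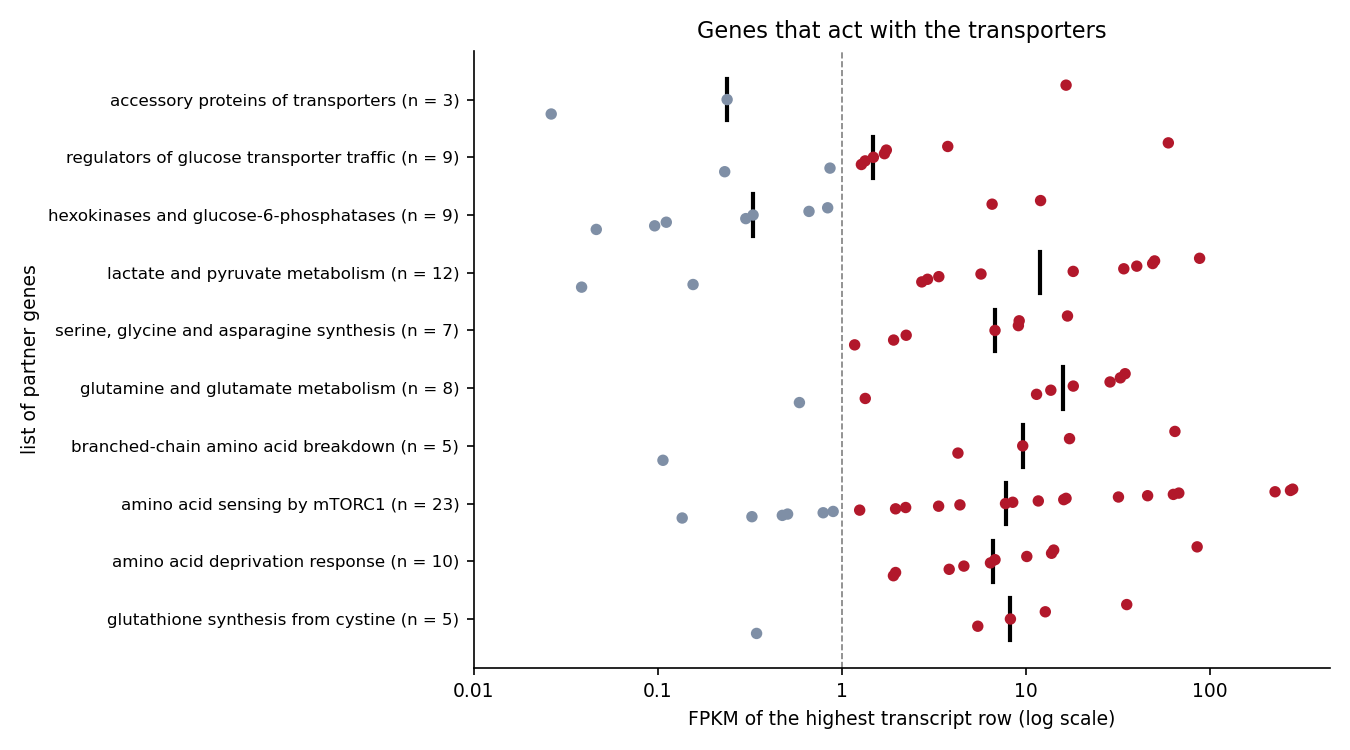
FPKM of the highest transcript row (log scale) of the 89 measured genes in 10 lists of genes that act with the transporters. Each point is 1 gene, red at 1 FPKM or more, black bars are medians and the dashed line marks 1 FPKM; ASNS and SESN2 stand in 2 lists each. The medians of the list of hexokinases and glucose-6-phosphatases (0.330 FPKM) and of the accessory protein list (0.238 FPKM) lay below 1 FPKM. The other 8 medians lay above it.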

How the data were processed

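RNA of 4 Smart-seq2 libraries of pig PG morulae was measured, per the labels' protocols. The deposited table gives FPKM per Ensembl transcript, per the file headers, and the authors merged the 4 libraries into its 1 value column, per the name of the table. The submitters' processing notes name TopHat2 2.1.1, Cufflinks 2.2.1 and the build susScr11 among others, without roles; the tool and annotation behind the table are not given in the sources used here. A wrong transcript length shifts a level, since these values are scaled by it. Some 4534 of 37571 rows were above 0 and under 1e-06 FPKM, as fitted values are, so read counts could not be recovered and depth is unknown.

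A gene's value was its highest row, and levels were counted against 1 FPKM (Python 3.11.15, pandas 2.3.3). Named were all expressed transporters, the 3 highest others of each family, the rest by value or range, and of each partner list the 4 highest and up to 3 highest below 1 FPKM; a few more are given beside a comparison. No test, random list or p-value was used. The genes and lists were chosen with earlier results of these data known. Sequence features planned for proteins and promoters were not run, and no sequence or coordinates were used here. The aggregation was tested on simulated rows. A few genes that the rule takes count in all totals and are not reported here by name. The other samples were not analysed here.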

Additional observations from a re-analysis of the deposited data

How the results depend on the processing

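Of the 92 transporters 32 (34.8%) stood at 1 FPKM or more, against 48.8% of all genes. At 5 FPKM the count was 13 (14.1%), against 28.4% of all genes. Once genes under 0.1 FPKM were left out, the share at 1 FPKM was 53.3%, against 68.1% of all genes. The share of other solute carriers was 23.5% at 5 FPKM. The median of the transporters was 1.26 FPKM among genes at 0.1 FPKM or more and 1.20 after scaling all rows to the same total (TPM).

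The family differences moved as follows. With a pseudocount of 0.1 they were 1.40 (SLC2 minus SLC5), -0.84 (SLC16 minus SLC2), -0.32 (SLC7 minus SLC3), -0.35 (SLC38 minus SLC36) and 2.41 (SLC1 minus SLC6). After scaling to TPM, SLC2 minus SLC5 was 0.97, SLC16 minus SLC2 was -0.63, SLC38 minus SLC36 was -0.22 and SLC1 minus SLC6 was 1.41. Without genes under 0.1 FPKM the sign turned for SLC2 minus SLC5 (-0.47), SLC7 minus SLC3 (1.67), SLC38 minus SLC36 (0.44) and SLC1 minus SLC6 (-0.57), where genes at or near 0 no longer enter the medians. With means the sign turned for SLC7 minus SLC3 (0.44), SLC38 minus SLC36 (0.12) and SLC1 minus SLC6 (-0.11). With rows summed, SLC16 minus SLC2 turned to 0.029 and SLC7 minus SLC3 was -0.11. Of 60 family counts and shares under the alternatives, 41 stayed within 1.5 times the reported value and 19 did not. Of the partner lists, the count at 5 FPKM fell from 10 to 6 for amino acid deprivation. It fell from 7 to 4 for serine, glycine and asparagine synthesis and from 7 to 1 for glucose carrier traffic. The count for hexokinases and glucose-6-phosphatases at 0.5 FPKM was 4 in place of 2. Of all genes 48.8% stood at 1 FPKM or more, 28.4% at 5 FPKM or more and 56.5% at 0.5 FPKM or more. No paired analysis was possible because the 4 libraries share 1 merged column, and no library could be left out for the same reason.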

Other observations

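Genes around the substrates of the highest carriers were looked up after the carriers' values were seen. Beside the creatine carrier SLC6A8, the genes of creatine synthesis GATM and GAMT stood at 0.359 and 0.358 FPKM, and the creatine kinase genes CKM and CKMT2 at 0.374 and 0.0791 FPKM. CKB, the creatine kinase of brain, was listed at 0 in the closing rows of the table, where levels are not known. Beside SLC2A9, the urate-forming oxidase gene XDH stood at 0.0185 FPKM and the urate oxidase gene UOX at 0.605 FPKM. Of genes of fructose and polyol metabolism, SORD, which turns sorbitol into fructose, stood at 52.3 FPKM and AKR1B1, which makes sorbitol from glucose, at 5.14 FPKM. The fructokinase gene KHK was at 0.192 FPKM. These values have no replicate check.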
